A study of Mus musculus with 6 samples.

Results

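This section describes 9 mouse genes, of the 18437 listed, in tongue tumours: the neutrophil surface antigen gene Ly6g, the granulocyte colony-stimulating factor gene Csf3 and its receptor Csf3r, the innate receptors Trem1, Fpr1 and Fpr2, the resistin-like gene Retnlg, and the stefins Stfa2 and Stfa2l1. They were chosen by symbol, as genes used to recognise neutrophils or known to be abundant in them, and all 9 symbols were found. The samples were bulk tumour RNA from C57BL/6 mice whose tongues had been injected with 4MOSC1, a mouse oral squamous carcinoma line. In 3 libraries the injected cells overexpressed LIGHT, a TNF family cytokine whose gene is Tnfsf14, and in the other 3 they were 4MOSC1 control cells. The sources used here do not give age and sex of the animals, the vector or the promoter driving LIGHT, and a single carcinoma line was used. Each specimen mixed tumour, immune and tongue cells.

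Neutrophils are short-lived granulocytes made in the bone marrow under G-CSF, and they leave the marrow with most granule proteins already made, so that mature cells carry little mRNA for primary granule enzymes. In tissue they are guided by chemokines through Cxcr2 and by formylated bacterial peptides through formyl peptide receptors. Stefins are small cytosolic inhibitors of cysteine cathepsins. Mice have a cluster of stefin A genes, of which several are expressed in neutrophils, while stefin A is also a keratinocyte protein of stratified epithelium. Fewer neutrophils in a tumour and less RNA of a gene per neutrophil cannot be told apart in these bulk samples.

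Tnfsf14 was at 23.9 to 26.2 TPM in LIGHT tumours and 0.53 to 0.79 TPM in control tumours, as the labels say. TPM is a length-corrected share of a library's transcripts, and the read depth of the values is unknown. The squamous markers Krt5 and Krt14 were high throughout. Krt5 was at 4470 to 5319 TPM in LIGHT and 4151 to 5395 TPM in control tumours. Krt14 was at 7000 to 9878 TPM in LIGHT and 10648 to 12469 TPM in control tumours. Haemoglobin transcripts set LIGHT replicates 2 and 3 apart, with Hba-a1 at 38.2, 773 and 307 TPM in LIGHT replicates 1, 2 and 3 and at 28.7, 153 and 37.3 TPM in control replicates 1, 2 and 3. Fold changes below are differences of log2(TPM + 1), LIGHT minus control, which understate the change of low genes, and calls use limma with a Benjamini-Hochberg adjusted p under 0.05. The adjustment ran over the 13167 genes that reached 1 TPM in 3 or more libraries. Nothing ties a library to an animal, so a p-value here reflects how these samples scatter, which may be technical.

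Stfa2 was the only gene of the set whose difference between LIGHT and control tumours passed the test. Of the 9 genes 8 were tested, each at 1.32 TPM or more in every library. Of these, 0 were called higher in LIGHT tumours, against 17.7% of all tested genes, and 1, Stfa2, was called lower, against 5.41% of all tested genes, while 23.1% were called in either direction. At an unadjusted p under 0.05 the counts were also 0 higher and 1 lower, with no share of all tested genes computed at that threshold. The median log2 fold change of the 8 was -0.21, beside 0.09 for all tested genes. Of the 8 changes 5 were negative and 3 positive, where 37.8% of all tested genes had a negative change. Under trimmed-mean or quantile scaling, which moved the median of all genes to -0.04, Csf3r and Trem1 also turned negative.

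Averaged over the 6 libraries, the per-length levels ran from Stfa2l1 (29.4 TPM) through Csf3r (19.2), Retnlg (16.6), Stfa2 (14.6), Csf3 (5.31), Fpr2 (5.07), Trem1 (2.53) and Fpr1 (2.44) to Ly6g (0.328 TPM). The steps from Stfa2l1 to Csf3r, from Fpr2 to Trem1 and from Fpr1 to Ly6g held in 6 of 6 libraries. Csf3 was above Fpr2 in only 3 of 6, and the remaining neighbours kept their order in 4 of 6, so these levels are not separated beyond their spread.

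**Figure D1:**
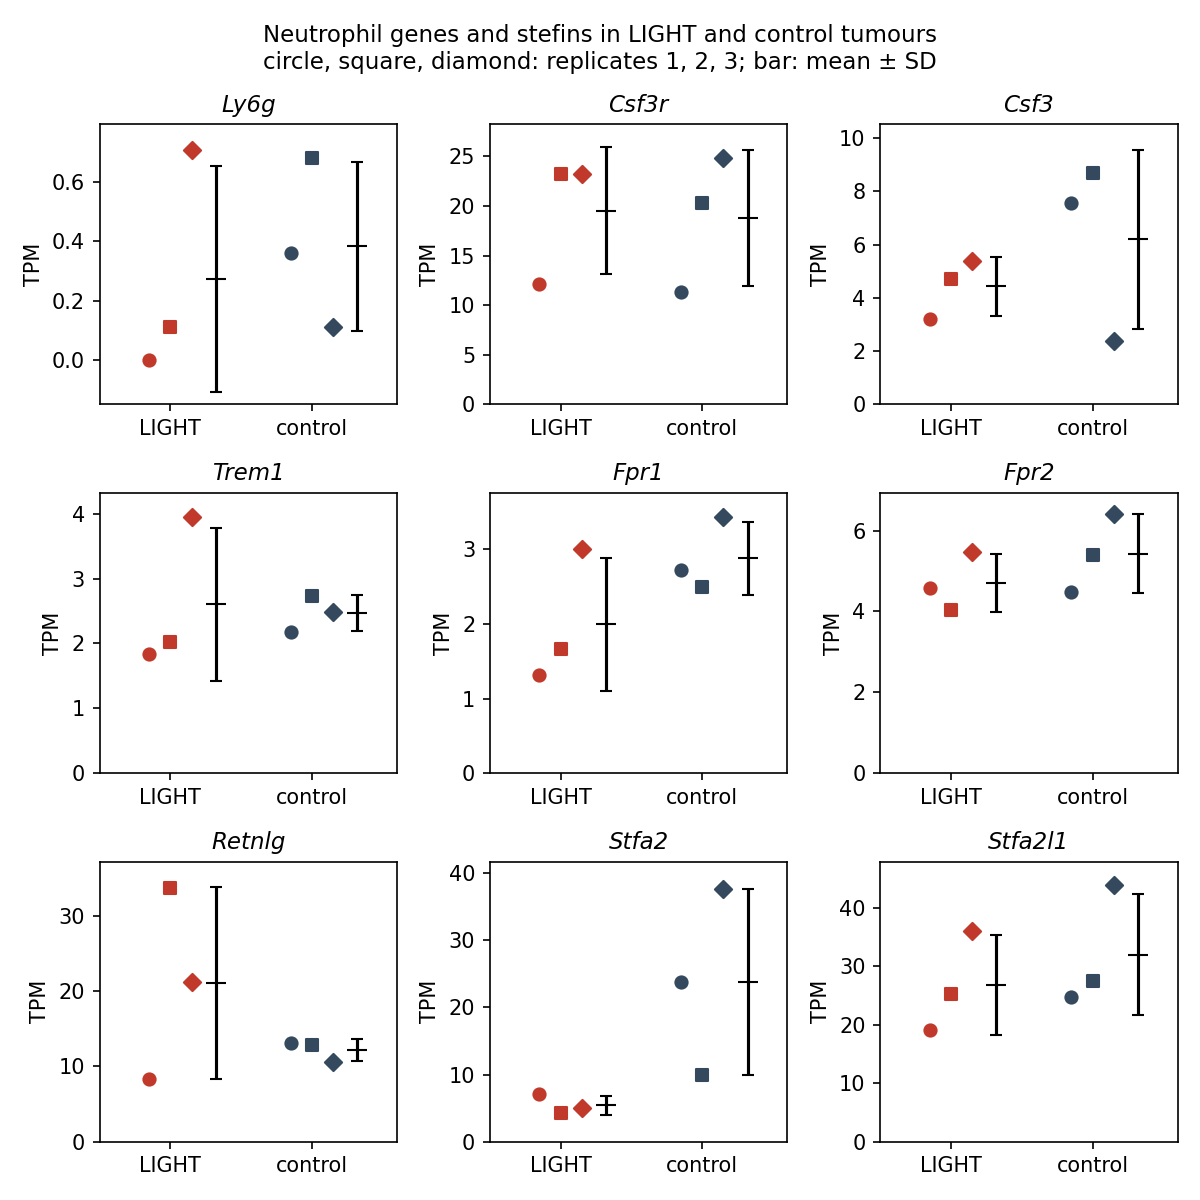
TPM (y axis, a separate linear scale for each gene) of the 9 genes in the 3 LIGHT and 3 control libraries (x axis), with mean ± SD beside the points. For Stfa2 the 3 LIGHT libraries (4.36 to 7.07 TPM) lie below the 3 control libraries (9.92 to 37.6 TPM), while the groups overlap for the other 8 genes.

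Stfa2 encodes a stefin A-type inhibitor of cysteine cathepsins. The gene lies on chromosome 16 from 36403946 to 36408363 on the minus strand (GRCm38.p6). It was at 7.07, 4.36 and 4.99 TPM in LIGHT replicates 1, 2 and 3, and at 23.8, 9.92 and 37.6 TPM in control replicates 1, 2 and 3. All 3 LIGHT values lay below all 3 control values, a pattern seen in 11.6% of all tested genes, and the spread was far wider among the control tumours. The mean fell to 5.47 ± 1.42 TPM in LIGHT tumours, against 23.8 ± 13.9 TPM in control tumours (mean ± SD, n = 3 each). The log2 fold change was -1.78 (SE 0.41, 95% interval -2.74 to -0.82, limma adjusted p = 0.0211), and an exact two-sided permutation test gave p = 0.1, the smallest that 20 assignments allow. In 7 of 17 other settings the call did not hold, including those without LIGHT replicate 2 (adjusted p = 0.0627), LIGHT replicate 3 (0.0596), control replicate 1 (0.0524) or control replicate 3 (0.0509). With the mean of 4 red blood cell markers as a covariate the log2 fold change was -1.16 (limma adjusted p = 0.104), while all 17 settings kept the negative sign. The red blood cell markers tended higher in LIGHT tumours (median log2 fold change 2.17), so this covariate can take up part of the group difference.

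Stfa2l1, on the plus strand of the same chromosome from 36156811 to 36161948 (GRCm38.p6), was the most abundant gene of the set. Its values were 19.1, 25.2 and 36.0 TPM in LIGHT replicates 1, 2 and 3, and 24.7, 27.4 and 43.8 TPM in control replicates 1, 2 and 3. The groups overlapped. The means were 26.7 ± 8.57 TPM in LIGHT and 32 ± 10.4 TPM in control tumours (SD, n = 3 each), and the log2 fold change was -0.25 (standard error 0.27, 95% interval -0.87 to 0.37, limma adjusted p = 0.535). The ratio of Stfa2 to Stfa2l1 TPM was 0.371, 0.173 and 0.139 in LIGHT replicates 1, 2 and 3, and 0.964, 0.362 and 0.859 in control replicates 1, 2 and 3. The lowest control ratio thus lay just under the highest LIGHT ratio, and the ratio itself did not pass (exact two-sided permutation p = 0.2).

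These stefins are close copies, so their reads can be confused, and their sequences are shown to let the differences be seen. The coding sequences are 312 bases each and identical at 301 of 312 aligned positions (96.5%). Below, from the GENCODE M21 transcripts (GRCm38), the first 270 coding bases are given 5′ to 3′ with the bases that differ between the copies in capitals, and the remainder is the same in both.
Stfa2 coding: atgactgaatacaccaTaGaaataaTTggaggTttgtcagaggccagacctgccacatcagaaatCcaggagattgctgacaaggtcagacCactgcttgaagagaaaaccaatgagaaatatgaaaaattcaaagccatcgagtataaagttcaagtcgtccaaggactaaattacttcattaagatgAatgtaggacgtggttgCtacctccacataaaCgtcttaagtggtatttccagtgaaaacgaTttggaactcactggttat
Stfa2l1 coding: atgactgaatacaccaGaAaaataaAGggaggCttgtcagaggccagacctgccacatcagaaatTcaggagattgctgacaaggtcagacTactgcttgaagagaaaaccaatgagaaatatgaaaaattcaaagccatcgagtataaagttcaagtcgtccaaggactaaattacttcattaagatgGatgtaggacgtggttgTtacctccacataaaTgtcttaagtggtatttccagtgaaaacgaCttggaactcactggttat
The capitals are densest near the start of the coding sequence. In their whole transcripts, 15.9% of the 50-base stretches of Stfa2 and 24.6% of those of Stfa2l1 also occurred in a transcript of another gene. At 100 bases 0 of 372 stretches of Stfa2 and 0 of 320 of Stfa2l1 did so. The sources used here do not give the read length or the treatment of reads with several matches, so how far the values of the copies share reads was not tested.

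The copies also resemble each other ahead of the gene, and both windows are shown because Stfa2 passed the test and Stfa2l1 did not. The 250 bases before each start are given 5′ to 3′ on the gene's own strand, from RefSeq (GRCm38.p6), at chr16:36408364-36408613 (minus strand) for Stfa2 and chr16:36156561-36156810 (plus strand) for Stfa2l1, with differing or unaligned bases in capitals.
Stfa2 upstream: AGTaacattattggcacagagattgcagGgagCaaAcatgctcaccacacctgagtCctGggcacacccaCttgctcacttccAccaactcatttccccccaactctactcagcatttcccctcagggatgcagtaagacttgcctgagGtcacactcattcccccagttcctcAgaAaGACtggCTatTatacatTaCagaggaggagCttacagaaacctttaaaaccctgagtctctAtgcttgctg
Stfa2l1 upstream: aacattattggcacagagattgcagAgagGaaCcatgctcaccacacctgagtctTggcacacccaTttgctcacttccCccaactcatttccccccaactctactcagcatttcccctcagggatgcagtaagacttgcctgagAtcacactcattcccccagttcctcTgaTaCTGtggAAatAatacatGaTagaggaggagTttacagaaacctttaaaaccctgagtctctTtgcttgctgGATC
The windows were identical at 227 of 254 aligned columns (89.4%). A pair of short motifs of factors known in granulocytes were searched on both strands of these 250 bases in every gene: GAGGAA, an ETS-type core, and TTGCNNAA, a C/EBP-type core. A gene counted if the window of any of its listed starts matched. The first occurred in the windows of 6 of the 8 genes with a RefSeq entry (Ly6g, Csf3r, Stfa2, Stfa2l1, Trem1 and Fpr2), against 25.9% of 27025 genes. Stfa2 and Stfa2l1 are close copies, so their matches are not separate observations. This motif matched 1 time in the Stfa2 window and 2 times in the Stfa2l1 window. The second occurred in 2 of the 8 (Ly6g and Retnlg), against 10.8% of all genes. A match describes letters in a window, not a bound site. Csf3 had no entry in the table.

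Stfa2 and Stfa2l1 stand in a cluster of stefin A genes whose members had unlike levels and changes. Of 10 genes of the cluster in the table, 9 were tested, and 2 of these were called lower in LIGHT tumours, Stfa2 and its neighbour Stfa3. Among all tested genes 5.41% were called lower. Stfa3 was at 19.9, 17.7 and 16.6 TPM in LIGHT and 21.7, 39.5 and 29.6 TPM in control replicates 1, 2 and 3 (log2 fold change -0.68, limma adjusted p = 0.0435). Cstdc5, on the other side of Stfa2, was at 33.5, 6.51 and 24.2 TPM in LIGHT and 47.8, 71.9 and 56.7 TPM in control replicates (log2 fold change -1.66, limma adjusted p = 0.0501). All its LIGHT values lay below its control values, as in 11.6% of all tested genes, but the adjusted p missed the threshold. Cstdc6 was listed at 0 in all 3 LIGHT libraries and at 0.66 to 1.33 TPM in the control libraries, and stayed under the limit for testing. Stfa1 was at 2.5 to 3.93 TPM in LIGHT and 0.53 to 3.16 TPM in control tumours (log2 fold change 0.48, limma adjusted p = 0.367). Csta1 was at 31.2 to 36.4 TPM in LIGHT and 33.0 to 58.9 TPM in control tumours (log2 fold change -0.49, limma adjusted p = 0.127).

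**Figure D2:**
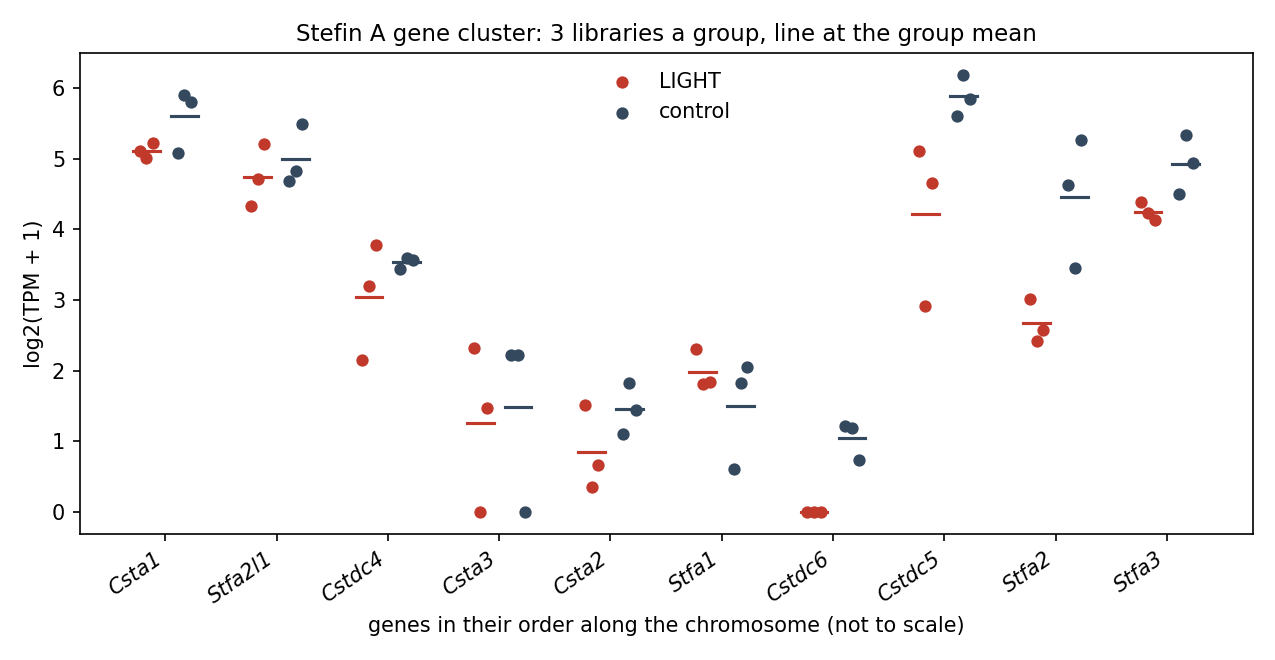
log2(TPM + 1) (y axis) of 10 stefin A cluster genes in their order on chromosome 16 (x axis, not to scale), with 3 LIGHT and 3 control libraries each and a line at each group's mean. LIGHT libraries lie below all control libraries for Cstdc6, Cstdc5, Stfa2 and Stfa3, which are neighbours, and overlap them for the other 6 genes. That pattern was seen in 11.6% of all tested genes. Cstdc6 was not tested, and Cstdc5 missed the threshold (limma adjusted p = 0.0501).

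In the whole list of stefin and cystatin genes 14 of 19 symbols were in the table and 13 were tested. Of these 3 rose and 2 fell, against 17.7% and 5.41% of all tested genes. The median log2 fold change of the 13 was -0.25, beside 0.09 for all tested genes. The 3 that rose were Cst7, an inhibitor found in cytotoxic lymphocytes and myeloid cells (25.6, 21.2 and 21.6 TPM in LIGHT and 6.57, 10.6 and 8.59 TPM in control replicates 1, 2 and 3, log2 fold change 1.33, limma adjusted p = 0.00253), Cst3, the secreted cystatin C (log2 fold change 0.72, limma adjusted p = 0.00264), and Cst6 (log2 fold change 0.60, limma adjusted p = 0.0211). Cstb, the second cytosolic stefin, was at 1227 to 1454 TPM in LIGHT and 1262 to 1321 TPM in control tumours (log2 fold change 0.06, limma adjusted p = 0.678). Among 4 cathepsins that stefins inhibit, Ctss, Ctsb and Ctsh rose and Ctsl fell. Ctsl was at 145, 159 and 186 TPM in LIGHT and 329, 281 and 308 TPM in control replicates 1, 2 and 3 (log2 fold change -0.91, limma adjusted p = 0.0026). Ctss was at 576, 610 and 418 TPM in LIGHT and 318, 267 and 329 TPM in control replicates (log2 fold change 0.79, limma adjusted p = 0.0114).

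The 5 tested genes whose profile over the 6 libraries was nearest to that of Stfa2, by the root-mean-square difference of centred log2(TPM + 1), were Sprr1b (0.317), Gsta1 (0.331), Gm3776 (0.378), Sprr1a (0.4) and Spink12 (0.431). Stfa2 itself had an SD of 1.15 over the 6 libraries on that scale. Sprr1a and Sprr1b are small proline-rich genes of the cornified envelope of squamous epithelium, Gsta1 is a glutathione S-transferase and Spink12 a serine protease inhibitor. Sprr1b was at 783, 430 and 763 TPM in LIGHT and 2205, 1318 and 2624 TPM in control replicates 1, 2 and 3, so its lowest library in each group was replicate 2, as for Stfa2. Of all tested genes, 54.2% had LIGHT replicate 2 as the lowest LIGHT library and 27.2% had control replicate 2 as the lowest control library. A gene near Stfa2 on this measure has to share its separation of the groups, and its low libraries in part follow from the measure too. Krt6a, a squamous marker, was also lower in LIGHT tumours (log2 fold change -0.62, limma adjusted p = 0.0406). It was the only 1 of 6 squamous markers called, while 5.41% of all tested genes were called lower. In 9 of 17 other settings 0 of the 6 were called lower, and the highest count was 3. Krt14 and Trp63 had log2 fold changes of -0.37 and -0.38 (limma adjusted p = 0.118 and 0.125), and Krt5 of 0.01 (limma adjusted p = 0.948). For 3 of the 6 all LIGHT values lay below all control values, as in 11.6% of all tested genes. The 6 summed to 17100 to 23600 TPM in LIGHT and 25000 to 29200 TPM in control tumours. The part of epithelial content in the fall of Stfa2 was not tested.

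Among the surface markers, Ly6g was near the limit of these data. It encodes the antigen recognised by the antibody most used to identify mouse neutrophils and lies on chromosome 15 from 75155261 to 75159128 (GRCm38.p6). It was listed at 0, 0.11 and 0.71 TPM in LIGHT replicates 1, 2 and 3, and at 0.36, 0.68 and 0.11 TPM in control replicates 1, 2 and 3. It was under 1 TPM in every library, was not tested by limma and overlapped between the groups (exact two-sided permutation p = 0.8). Levels across the Ly6 list were far apart, with Ly6a at 3140 to 4168 TPM in LIGHT and 3347 to 3481 TPM in control tumours, and Ly6f listed at 0 in every LIGHT library and at no more than 0.12 TPM in the control libraries. Of 7 tested genes of that list 1 rose, against 17.7% of all tested genes. This was Ly6c2, a monocyte antigen (53.9, 43.8 and 41.6 TPM in LIGHT and 18.4, 29.6 and 30.4 TPM in control replicates 1, 2 and 3, log2 fold change 0.83, limma adjusted p = 0.0219). Of the 50-base stretches of Ly6g transcripts 0.448% occurred in another gene.

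Csf3r, the G-CSF receptor that maintains granulocyte production and survival, was the most abundant receptor of the set. It lies on chromosome 4 from 126023441 to 126044975 (GRCm38.p6). It was at 12.2, 23.2 and 23.3 TPM in LIGHT replicates 1, 2 and 3, and at 11.3, 20.3 and 24.8 TPM in control replicates 1, 2 and 3. Each group had replicate 1 low and the other libraries about alike, and the groups overlapped. The means were 19.5 ± 6.39 TPM in LIGHT and 18.8 ± 6.9 TPM in control tumours (SD, n = 3 each), and the log2 fold change was 0.06 (standard error 0.32, limma adjusted p = 0.907). The 95% interval ran from -0.69 to 0.82. Of its 50-base stretches 10.5% also occurred in another gene, and of its 100-base stretches 0.376%. The 5 tested genes with the nearest profile, again by the root-mean-square difference, were Tmem266 (0.14), Tgm6 (0.144), Ripor3 (0.154), Ankrd35 (0.154) and Cpm (0.157), beside an SD of 0.48 for Csf3r.

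Csf3, the gene of G-CSF itself, was low and variable. It lies on chromosome 11 from 98700183 to 98703631 (GRCm38.p6). It was at 3.21, 4.7 and 5.37 TPM in LIGHT replicates 1, 2 and 3, and at 7.55, 8.68 and 2.36 TPM in control replicates 1, 2 and 3. Control replicates 1 and 2 were the highest of the 6 libraries and control replicate 3 the lowest. The log2 fold change was -0.29 (SE 0.38, 95% interval -1.17 to 0.60, limma adjusted p = 0.626). It ranged from -0.77 without control replicate 3 (adjusted p = 0.0503) to 0 without control replicate 2 (adjusted p = 0.996). Among 7 tested cytokines, receptors and cofactors known to induce Csf3, 1 was called lower, against 5.41% of all tested genes. This was Il17f, at 0.85 to 1.03 TPM in LIGHT and 1.25 to 1.96 TPM in control tumours (log2 fold change -0.49, limma adjusted p = 0.0471). Its control libraries alone met the filter on low values, and 2 of its 3 LIGHT libraries were under 1 TPM, so the filter bears on the direction of this call. Il17a did not exceed 0.25 TPM in any library.

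In the list of colony-stimulating factors, their receptors and signalling genes, 13 were tested, 7 rose and 0 fell, and the median log2 fold change was 0.41. Of all tested genes 17.7% were called higher and 5.41% lower, with a median of 0.09. Csf2ra, the alpha chain of the GM-CSF receptor, was at 30.5, 35.2 and 29.5 TPM in LIGHT and 16.5, 15.2 and 18.2 TPM in control replicates 1, 2 and 3 (log2 fold change 0.89, limma adjusted p = 0.00236). Csf2rb2 and Csf2rb, beta chain genes of this receptor family, had log2 fold changes of 0.73 and 0.63 (limma adjusted p = 0.0062 and 0.00699). Csf1r, the macrophage colony-stimulating factor receptor, and its ligand Csf1 had log2 fold changes of 0.69 and 0.65 (limma adjusted p = 0.0111 and 0.0218). Gfi1, a repressor needed for granulocyte and lymphocyte development, rose by 0.97 on the log2 scale (limma adjusted p = 0.00279) but did not exceed 0.47 TPM in any control library, so that the filter on low values fixed its direction. The seventh was Stat3, the signal transducer downstream of the G-CSF receptor and of many others (log2 fold change 0.41, limma adjusted p = 0.0183). Socs3, its feedback inhibitor, was at 32.6 to 38.7 TPM in LIGHT and 28.1 to 44.3 TPM in control tumours (log2 fold change 0.01, limma adjusted p = 0.984).

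Csf3r was also set against other receptors within each library. Csf3r over Csf2ra was 0.398, 0.66 and 0.789 in LIGHT replicates 1, 2 and 3, and 0.682, 1.34 and 1.36 in control replicates 1, 2 and 3. The groups overlapped at control replicate 1 (exact two-sided permutation p = 0.2). Csf3r over Ptprc, the pan-leukocyte gene CD45, was 0.43, 0.927 and 0.969 in LIGHT and 0.984, 1.23 and 1.84 in control replicates 1, 2 and 3. Here all LIGHT values lay below all control values (exact two-sided permutation p = 0.1). In all, 6 ratios were computed, chosen after values were seen, and their Benjamini-Hochberg adjusted permutation p ran from 0.36 to 0.4. Ptprc itself rose, at 24 to 28.3 TPM in LIGHT and 11.5 to 16.5 TPM in control tumours (log2 fold change 0.86, limma adjusted p = 0.00572).

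**Figure D3:**
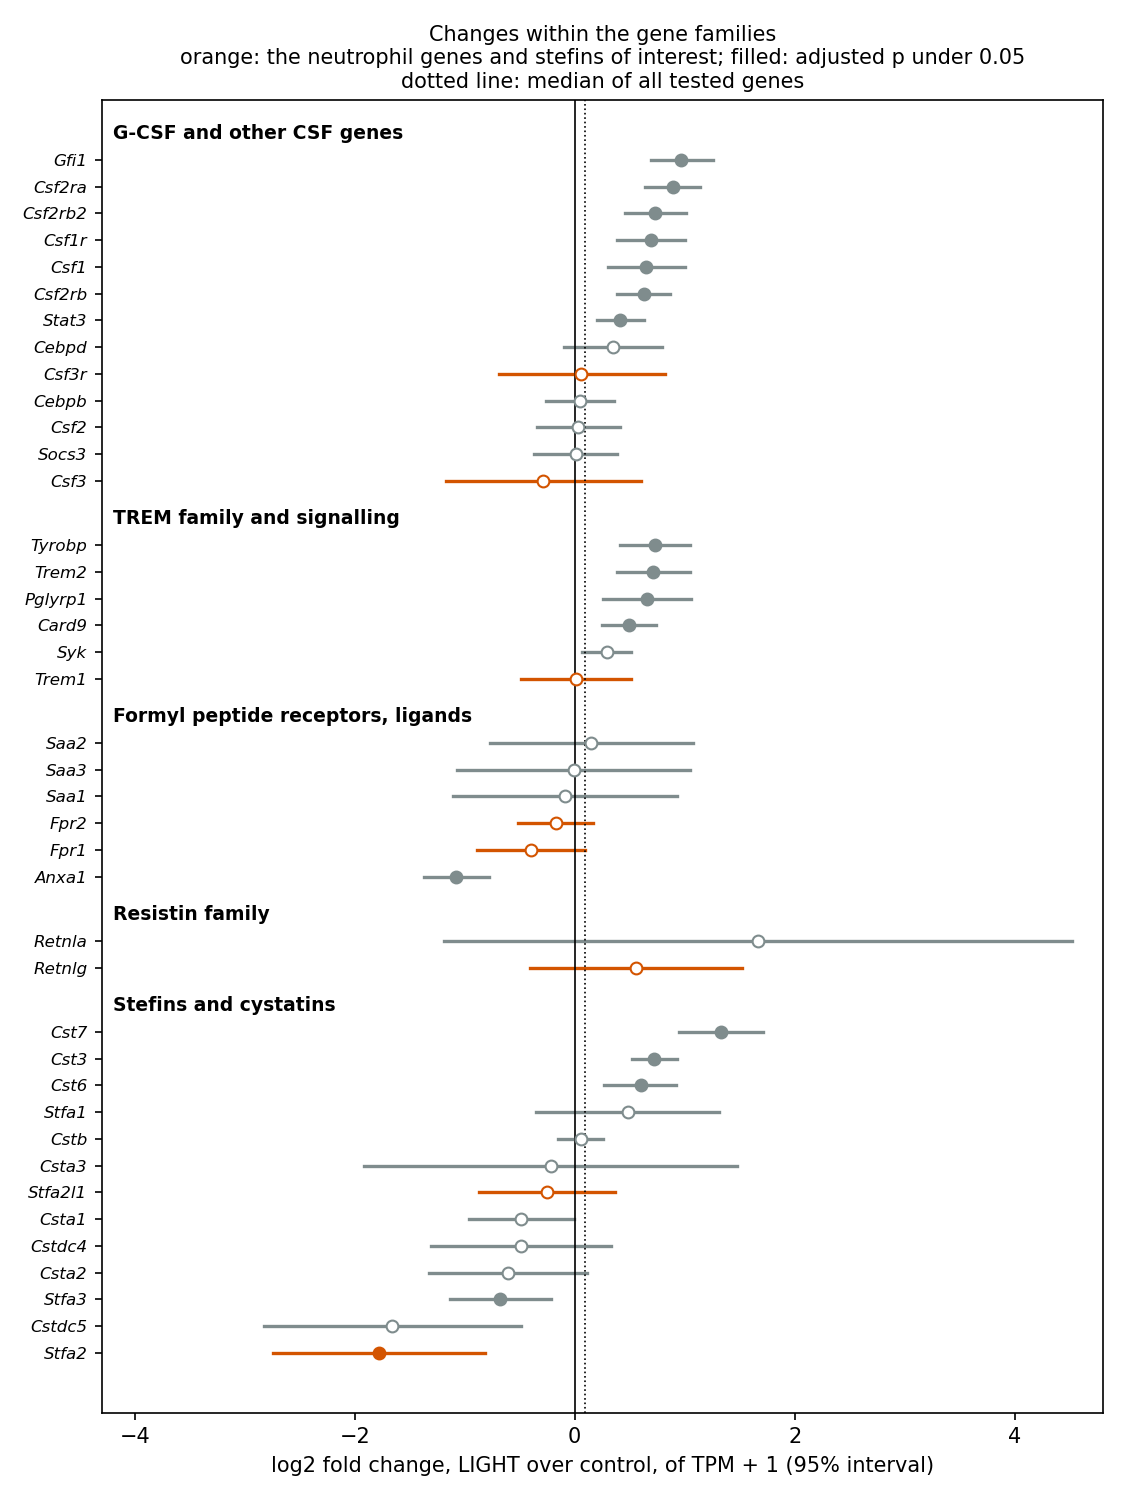
Log2 fold change (x axis, LIGHT over control, of TPM + 1, with 95% intervals) of the tested genes of 5 families (y axis). Filled points have an adjusted p under 0.05, orange marks the genes described here, and the dotted line is the median of all tested genes (0.09). Stfa2 is the only filled orange point, at -1.78.

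Trem1, a receptor that amplifies inflammatory signals in neutrophils and monocytes through the adaptor Tyrobp, lies on chromosome 17 from 48232713 to 48246927 (GRCm38.p6). It was at 1.83, 2.02 and 3.95 TPM in LIGHT replicates 1, 2 and 3, and at 2.18, 2.73 and 2.48 TPM in control replicates 1, 2 and 3. LIGHT replicate 3 was the highest library and the other LIGHT replicates the lowest. The log2 fold change was 0.01 (SE 0.21, 95% interval -0.49 to 0.51, limma adjusted p = 0.975). Of 6 tested genes of the TREM family and its signalling 4 rose, against 17.7% of all tested genes. Tyrobp was at 252, 300 and 216 TPM in LIGHT and 135, 153 and 172 TPM in control replicates 1, 2 and 3 (log2 fold change 0.73, limma adjusted p = 0.0108). Trem2, the macrophage receptor that shares this adaptor, had a log2 fold change of 0.71 (limma adjusted p = 0.013). Pglyrp1, a peptidoglycan-binding granule protein that can engage Trem1, and Card9 had log2 fold changes of 0.66 and 0.49 (limma adjusted p = 0.0315 and 0.0167). The ratio of Trem1 to Trem2 was 0.0906, 0.076 and 0.205 in LIGHT and 0.19, 0.187 and 0.193 in control replicates 1, 2 and 3, so that 2 LIGHT libraries were below and 1 above all control libraries.

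Fpr1 and Fpr2 encode receptors that draw neutrophils to formylated peptides, and Fpr2 also binds annexin A1 and serum amyloid A. They are neighbours on chromosome 17, Fpr1 from 17876471 to 17883939 on the minus strand and Fpr2 from 17887824 to 17893952 on the plus strand (GRCm38.p6). Fpr1 was at 1.32, 1.67 and 3.01 TPM in LIGHT replicates 1, 2 and 3, and at 2.72, 2.49 and 3.43 TPM in control replicates 1, 2 and 3. LIGHT replicates 1 and 2 were the lowest libraries, and LIGHT replicate 3 lay among the controls. The log2 fold change was -0.40 (SE 0.21, 95% interval -0.89 to 0.09, limma adjusted p = 0.209). Without LIGHT replicate 3 Fpr1 passed as lower (log2 fold change -0.63, limma adjusted p = 0.0496).

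Fpr2 was at 4.59, 4.04 and 5.46 TPM in LIGHT replicates 1, 2 and 3, and at 4.48, 5.4 and 6.42 TPM in control replicates 1, 2 and 3. It had the narrowest range of the tested genes of the set, with the highest library 1.59 times the lowest, and the groups overlapped (log2 fold change -0.17, SE 0.15, 95% interval -0.52 to 0.17, limma adjusted p = 0.442). Its annotation overlaps that of Fpr3 on the same strand. Of its 50-base stretches 31.5% occur in another gene, against 0.0784% for Fpr1, so the Fpr2 value is the less certain. At 100 bases the shares were 12.3% for Fpr2 and 0% for Fpr1. In the list of receptors and ligands 7 of 12 symbols were in the table and 6 were tested. Against 5.41% of all tested genes, 1 of these fell, Anxa1. This gene of annexin A1, an abundant epithelial and neutrophil protein, was at 3229, 2661 and 2562 TPM in LIGHT and 5959, 5233 and 6649 TPM in control replicates 1, 2 and 3 (log2 fold change -1.08, limma adjusted p = 0.00232). Saa3, an inducible serum amyloid A gene, was at 353 to 1446 TPM in LIGHT and 550 to 923 TPM in control tumours (log2 fold change -0.01, limma adjusted p = 0.99).

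Retnlg encodes a resistin-like secreted protein made in bone marrow and mature neutrophils and lies on chromosome 16 from 48872608 to 48874498 (GRCm38.p6). It was at 8.32, 33.7 and 21.2 TPM in LIGHT replicates 1, 2 and 3, and at 13.1, 12.9 and 10.5 TPM in control replicates 1, 2 and 3. The control libraries were close together, while LIGHT replicate 1 was the lowest and LIGHT replicates 2 and 3 the highest of the 6. The log2 fold change was 0.56 (SE 0.41, 95% interval -0.41 to 1.52, limma adjusted p = 0.37). Without LIGHT replicate 1 Retnlg passed as higher (log2 fold change 1.08, SE 0.20, limma adjusted p = 0.0153). LIGHT replicates 2 and 3 were also the libraries with the most Hba-a1 RNA, and with the mean of 4 red blood cell markers as a covariate the log2 fold change was -0.13 (limma adjusted p = 0.824). With the mean of 11 skeletal muscle markers, which summed to 4830 to 8330 TPM in LIGHT and 3170 to 5470 TPM in control tumours, it was -0.07 (limma adjusted p = 0.954). Both sets of markers tended higher in LIGHT tumours (median log2 fold change 2.17 and 0.7), so either covariate can take up part of the group difference. The part of blood or muscle content in the Retnlg values was not tested. Retnla, a relative made by alternatively activated macrophages and other cells, was at 4.8, 83 and 5.05 TPM in LIGHT and 0.29, 17.9 and 2.78 TPM in control replicates 1, 2 and 3, highest in replicate 2 of each group (limma adjusted p = 0.365).

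The members were also compared library by library. LIGHT replicate 1 was the lowest LIGHT library for 6 of the 8 tested genes (Csf3r, Csf3, Retnlg, Stfa2l1, Trem1 and Fpr1), where it was the lowest for 22.1% of all tested genes. LIGHT replicate 2 was the lowest for 2 of the 8, Stfa2 and Fpr2, where it was the lowest for 54.2% of all tested genes. Control replicate 1 was the lowest control library for 4 of the 8, against 22.1% of all tested genes. Control replicates 2 and 3 were the lowest for 2 each, against 27.2% and 50.7%. Within the set the most alike profiles, by the root-mean-square difference of centred log2(TPM + 1), were Stfa2l1 and Fpr1 (0.18), followed by Fpr1 with Fpr2 and Trem1 with Fpr2 (0.22 each). Low genes vary less on this scale.

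**Figure D4:**
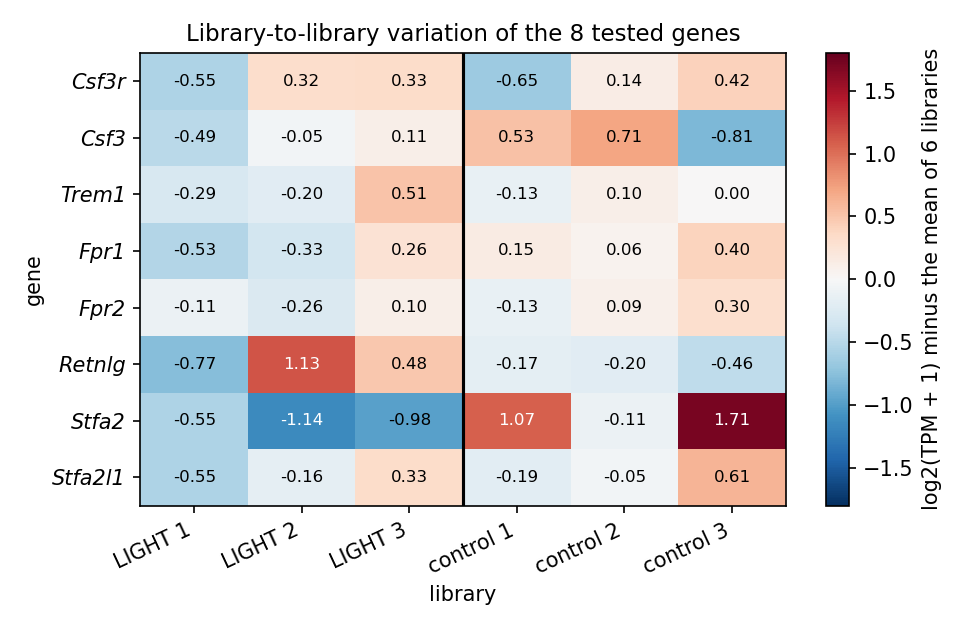
log2(TPM + 1) minus the mean of the 6 libraries (colour and printed value) for the 8 tested genes (y axis) in each library (x axis). LIGHT replicate 1 is below 0 in every row, and Stfa2 is below 0 in all 3 LIGHT libraries and lowest, at -1.14, in LIGHT replicate 2.

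Further neutrophil genes were counted to set the members in context, beside 17.7% of all tested genes called higher and 5.41% lower. Of 18 genes listed for mature neutrophils 17 were tested, and the median log2 fold change was -0.12, and 1 rose and 1 fell. These genes are not confined to neutrophils, so the count and median are not of neutrophil RNA alone. Asprv1 was at 459 to 930 TPM in LIGHT and 760 to 1156 TPM in control tumours, and its cell source was not tested. Slfn4, a myeloid schlafen gene, was at 20.5, 23.6 and 23.5 TPM in LIGHT and 31.8, 44.6 and 51.9 TPM in control replicates 1, 2 and 3 (log2 fold change -0.87, limma adjusted p = 0.0118). Msrb1, a widely expressed methionine sulfoxide reductase, had a log2 fold change of 0.30 (limma adjusted p = 0.0437), and in 9 of 17 other settings 0 genes of the list rose. Cxcr2, the receptor for neutrophil-attracting chemokines, was at 2.16, 3.27 and 4.51 TPM in LIGHT and 2.55, 3.34 and 4.26 TPM in control replicates 1, 2 and 3 (log2 fold change -0.04, limma adjusted p = 0.916). S100a8, a calgranulin of neutrophils that stressed keratinocytes also make, was at 1793, 105 and 1307 TPM in LIGHT and 704, 815 and 963 TPM in control replicates 1, 2 and 3, so that LIGHT replicate 2 stood far below the rest while its Retnlg was the highest. Of the ligands and receptors of neutrophil recruitment, Ppbp, also a platelet chemokine gene, and Cxcl3 fell (log2 fold change -1.98 and -0.92, limma adjusted p = 0.00116 and 0.0292) among 7 tested.

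Of 17 listed genes of neutrophil granule proteins 16 were in the table, 8 of these were under 1 TPM in every library and 7 were tested. Over all tested genes 17.7% were called higher and 5.41% lower. Mpo, myeloperoxidase, did not exceed 0.09 TPM, Ngp 0.17 TPM and Camp, cathelicidin, 0.45 TPM in any library. Among the tested genes Lyz2, Pglyrp1 and Lcn2 rose (log2 fold change 1.11, 0.66 and 0.82, limma adjusted p = 0.00447, 0.0315 and 0.0338) and Ltf, lactoferrin, fell (log2 fold change -0.68, limma adjusted p = 0.0283). Lyz2 is also a macrophage gene, and Lcn2, Ltf and Pglyrp1 are also made by epithelia. The 3 rises became 1 in 10 of 17 other settings.

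Markers of other leukocytes were counted in the same way, beside 17.7% of all tested genes called higher and 5.41% lower. Of 10 monocyte and macrophage markers 6 rose (3 with the muscle covariate) and 0 fell, with summed levels of 1240 to 1640 TPM in LIGHT and 723 to 834 TPM in control tumours. All 5 T cell markers rose (2 with the red blood cell covariate), with summed levels of 136 to 175 TPM in LIGHT and 34.5 to 84.5 TPM in control tumours. Of 9 eosinophil and mast cell markers 3 were tested (Cpa3, Mcpt4 and Tpsb2, all mast cell genes) and 0 called. The 9 summed to 5.94 to 19.7 TPM in LIGHT and 7.1 to 14.4 TPM in control tumours. No eosinophil marker passed the filter. Epx did not exceed 0.03 TPM, while Prg2 was at 0.39 to 1.63 TPM in LIGHT and 0.25 to 0.27 TPM in control tumours. Siglecf (0.69 to 1.86 TPM in LIGHT, 0.23 to 0.69 TPM in control tumours) and Ccr3 (0.13 to 0.66 and 0.07 to 0.17 TPM) overlapped between the groups. Itgam, the CD11b chain shared by neutrophils and monocytes, was at 9.71 ± 0.592 TPM in LIGHT and 9.97 ± 1.67 TPM in control tumours (SD, n = 3 each, limma adjusted p = 0.914). The part of these cells in the values of Csf3r, Trem1, Fpr1 and Fpr2, which monocytes also express, was not tested.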

How the data were processed

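Bulk RNA-seq of 3 LIGHT and 3 control tumours was used. The authors deposited a table of TPM per gene with 2 decimals. HISAT, Bowtie2 and the build GRCm38.p6 are named, per the submitters' processing notes, with no role or version. The sources used here do not give the quantifier, annotation, strand setting, read length or filters. TPM keeps no depth, so no counting interval can be given. Groups follow the sample labels. Genes reaching 1 TPM in 3 or more of 6 libraries were kept, and log2(TPM + 1) was tested with limma 3.58.1 in R 4.3.3 (mean-variance trend, Benjamini-Hochberg adjustment over 13167 genes). The fit was tested on simulated data. Single values were tested with exact two-sided permutation over 20 assignments, which cannot give a p below 0.1. Sequences were handled with Python 3.11.15 and Biopython 1.88, from GENCODE M21 and RefSeq, and figures with matplotlib 3.10.9.

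Alternatives were pseudocounts of 0.1 and 0.5, no filter, a filter at 5 TPM, trimmed-mean and quantile scaling, each library left out, a replicate block, red blood cell or muscle markers as a covariate, and limma without the trend or with robust variances. Named genes are the 9 members, up to 4 tested genes of each list by the smallest unadjusted p, 7 fixed neutrophil and leukocyte genes where a level is needed, and the 5 nearest profiles to Csf3r and to Stfa2. Stfa3, Cstdc5, Cstdc6, Stfa1, Csta1, Cstb, Csf1, Stat3, Socs3, Il17a, Saa3, Ly6a, Ngp, Camp, Epx, Prg2, Siglecf, Ccr3, Asprv1, Ly6f and Krt5, outside that rule, were named after their values were seen, and Tnfsf14 checks the labels. The members and lists were chosen with earlier results of these data known.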

Additional observations from a re-analysis of the deposited data

How the results depend on the processing

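There were 17 other settings, of which Trem1 and Fpr1 were fitted in 16 and Ly6g in 1. Where fitted, no log2 fold change of a member reversed with a call. Stfa2 stayed negative in 17 of 17 (-2.28 to -1.16, limma adjusted p from 0.00344 to 0.124) and was called in 10. Its call was lost with the red blood cell covariate (adjusted p = 0.104), the muscle covariate (0.124) and robust limma (0.0576), so that the count of members called lower was 0 in each, and this count ran from 0 to 1 with a library left out. The count of members called higher was 0 to 1 with a library left out, where the 1 was Retnlg without LIGHT replicate 1. The causes were not tested. With 3 libraries a group, unknown depth and low TPM for Ly6g, Trem1 and Fpr1, small differences cannot be resolved.

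Over all tested genes, 2325 were called higher and 712 lower. Quantile scaling gave 1410 higher and 1813 lower, and trimmed-mean scaling 1637 higher and 2004 lower, with the median log2 fold change at -0.04 in both, against 0.09. The red blood cell covariate gave 946 higher and 203 lower, and the muscle covariate 691 higher and 108 lower. With a library left out the counts ran from 1264 to 2027 higher and from 325 to 791 lower.

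The counts for the gene lists moved as follows. With the muscle covariate 1 cathepsin, 4 colony-stimulating factor, 1 granule and 0 TREM genes rose, and 0 Csf3 inducers, 0 mature neutrophil, 0 granule and 0 stefin genes and 1 chemoattractant gene fell. With the red blood cell covariate 0 Ly6, 0 mature neutrophil, 1 granule and 0 TREM genes rose, and 0 Csf3 inducers and 0 stefins fell. Quantile scaling gave 0 mature neutrophil, 1 granule and 2 TREM genes higher, and 2 Csf3 inducers and 2 mature neutrophil genes lower. Trimmed-mean scaling gave 0 Ly6, 0 mature neutrophil and 1 granule gene higher and 3 Csf3 inducers lower. Without a filter 1 granule gene was higher and 1 chemoattractant gene lower, a filter at 5 TPM left 0 Csf3 inducers lower, limma without the trend left 0 mature neutrophil genes higher, and robust limma left 1 stefin lower. With a library left out the lists gave 1 to 3 formyl peptide genes, 0 to 1 Csf3 inducers, 1 to 3 chemoattractant genes, 0 to 1 granule genes and 0 to 3 stefins and cystatins lower, and 0 to 1 Ly6, 0 to 1 mature neutrophil, 1 to 3 granule, 0 to 1 resistin and 2 to 4 TREM genes higher.

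Among the cell type markers, the 1 squamous marker called lower became 3 with trimmed-mean scaling and 2 with a replicate block. It became 0 with quantile scaling, without a filter and with either covariate, and ran from 0 to 2 with a library left out. The 5 T cell markers called higher became 2 with the red blood cell covariate, and the 6 monocyte and macrophage markers became 3 with the muscle covariate. Without LIGHT replicate 1, 4 red blood cell, 4 skeletal muscle and 1 platelet marker were called higher, against 0 of each with all libraries. A replicate block also gave 4 red blood cell markers higher, and leaving out control replicate 1 gave 7 skeletal muscle markers higher.

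The replicate numbers of the 2 groups were not treated as pairing, since the same-numbered libraries correlated at 0.37, 0.24 and 0.01 in their deviations from the group means and LIGHT replicates 2 and 3 each correlated best with another number. A replicate block gave 2325 genes higher and 907 lower, 0 members higher and 1 lower (Stfa2, limma adjusted p = 0.0186), 1 Csf3 inducer and 1 resistin gene higher, and 0 Csf3 inducers, 1 chemoattractant gene and 1 stefin lower.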
